A study of Homo sapiens with 6 samples.

Results

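Genes of DNA replication and S phase were followed in SNU-668, an established human gastric cancer line, after transfer of a short hairpin RNA against ALKBH3. The set holds 47 genes chosen by name for their roles in origin licensing, helicase activation, DNA synthesis, nucleotide supply and entry into S phase. Of these, 46 had a row among the 20325 genes of the deposited table and all 46 were tested, while UHRF1 was not analysed here. All 6 libraries came from cells that the labels describe as resistant to erastin, a small molecule that blocks cystine import and so induces ferroptosis. Every library title begins with RLS3, a name that is not interpreted here. The control group (3 libraries, genotype label WT) received the hairpin named shRNA-NC, and the knockdown group (3 libraries, genotype label ALKBH3 knockdown) received shRNA-ALKBH3. The labels say nothing of the hairpin's sequence, of clones, or of whether each library came from its own culture. The p-values therefore reflect library-to-library spread, which may be technical. ALKBH3 encodes an enzyme that repairs alkylated nucleic acids by oxidative demethylation, and the design asks which transcripts differ when it is reduced.

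Replication is prepared in G1, when the origin recognition complex (ORC), CDC6 and CDT1 load the ring-shaped MCM2 to MCM7 helicase onto DNA. In S phase, MCM10, CDC45 and the 4-subunit GINS complex turn the loaded ring into a running helicase, RPA covers the single strands, and polymerases alpha, delta and epsilon copy them. The clamp PCNA, placed by the RFC clamp loader, holds the polymerases on DNA. Deoxynucleotides come from ribonucleotide reductase, thymidylate synthase and thymidine kinase, and cyclin E with CDK2 drives the entry into S phase. Many of these genes are known targets of E2F transcription factors and are transcribed around the G1/S boundary. In RNA from a whole culture, fewer cells in S phase and less RNA per cell cannot be told apart.

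Library totals ran from 14244932 to 17880183 counts. Knockdown replicates 2 and 3 were much more alike than any other pair of replicates, with 2.99 as their chi-square over gene counts per degree of freedom, against 9.80 to 10.5 for the other 5 pairs within a group, so knockdown replicate 1 stood apart from them. ALKBH3 raw counts were 326, 351 and 334 in controls, falling to 95, 106 and 68 under the hairpin, so every knockdown library lay far below every control (log2 fold change -2.11, SE 0.137, edgeR adjusted p = 1.01e-10). Of 6 gastric epithelial markers, 4 (CLDN18, GKN1, MUC6 and MUC5AC) had 0 reads in all libraries and TFF1 and TFF2 had 2 and 4 in total. The epithelial cadherin CDH1 had 0 reads and EPCAM had 54 over the 6 libraries. VIM, an intermediate filament of mesenchymal cells, was at 3840 ± 168 CPM (read counts scaled to a common library size; SD, n = 3) in controls. Of 4 tested epithelial markers 3, the keratins KRT7, KRT18 and KRT8, rose, and the list summed to 155 to 179 CPM in controls and 222 to 237 in the knockdown. CD3E and HBB, markers of T cells and red cells, had 0 reads, and the 5 measured markers of immune, endothelial and red cells summed to 2.20 to 3.37 CPM in controls and 2.95 to 5.86 in the knockdown.

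In the knockdown 11 of the 46 tested members fell and 0 rose (edgeR's quasi-likelihood test, Benjamini-Hochberg adjusted p under 0.05 over 12305 genes). Among all genes tested 4.12% fell and 3.96% rose, 8.08% in either direction. Scaled by library totals alone, 417 genes were lower and 610 higher, against 507 and 487 in the fit reported, and 10 members were lower. The 11 were GINS4, CDC25A, CDC6, ORC1, CLSPN, RFC3, GINS1, RRM2, TK1, MCM4 and CDK2, and their mean levels in the knockdown were between 67.5% and 82.4% of the control mean. The other 35 members lay between 79.1% and 106%. Counting every member, 40 of 46 had a negative log2 fold change (knockdown over control), against 48.4% of all tested genes. The median log2 fold change was -0.20 for the members and 0.01 for all tested genes. An unadjusted p under 0.05 was found for 24 members, against 22.2% of all genes, and DESeq2 and limma-voom each called 0 members higher. In 17 members every knockdown library lay below every control library, against 13.3% of all genes, and in 0 members was it the reverse, against 13.3% as well. The number of lower members depended on single libraries. It was 7 when control replicate 1 was left out, 17 when control replicate 2 was, and 5 when knockdown replicate 2 was. Control replicate 2 was the lowest control for most members, so leaving it out raises their control mean. Passes without that library, given below, are partly fixed by this.

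**Figure D1:**
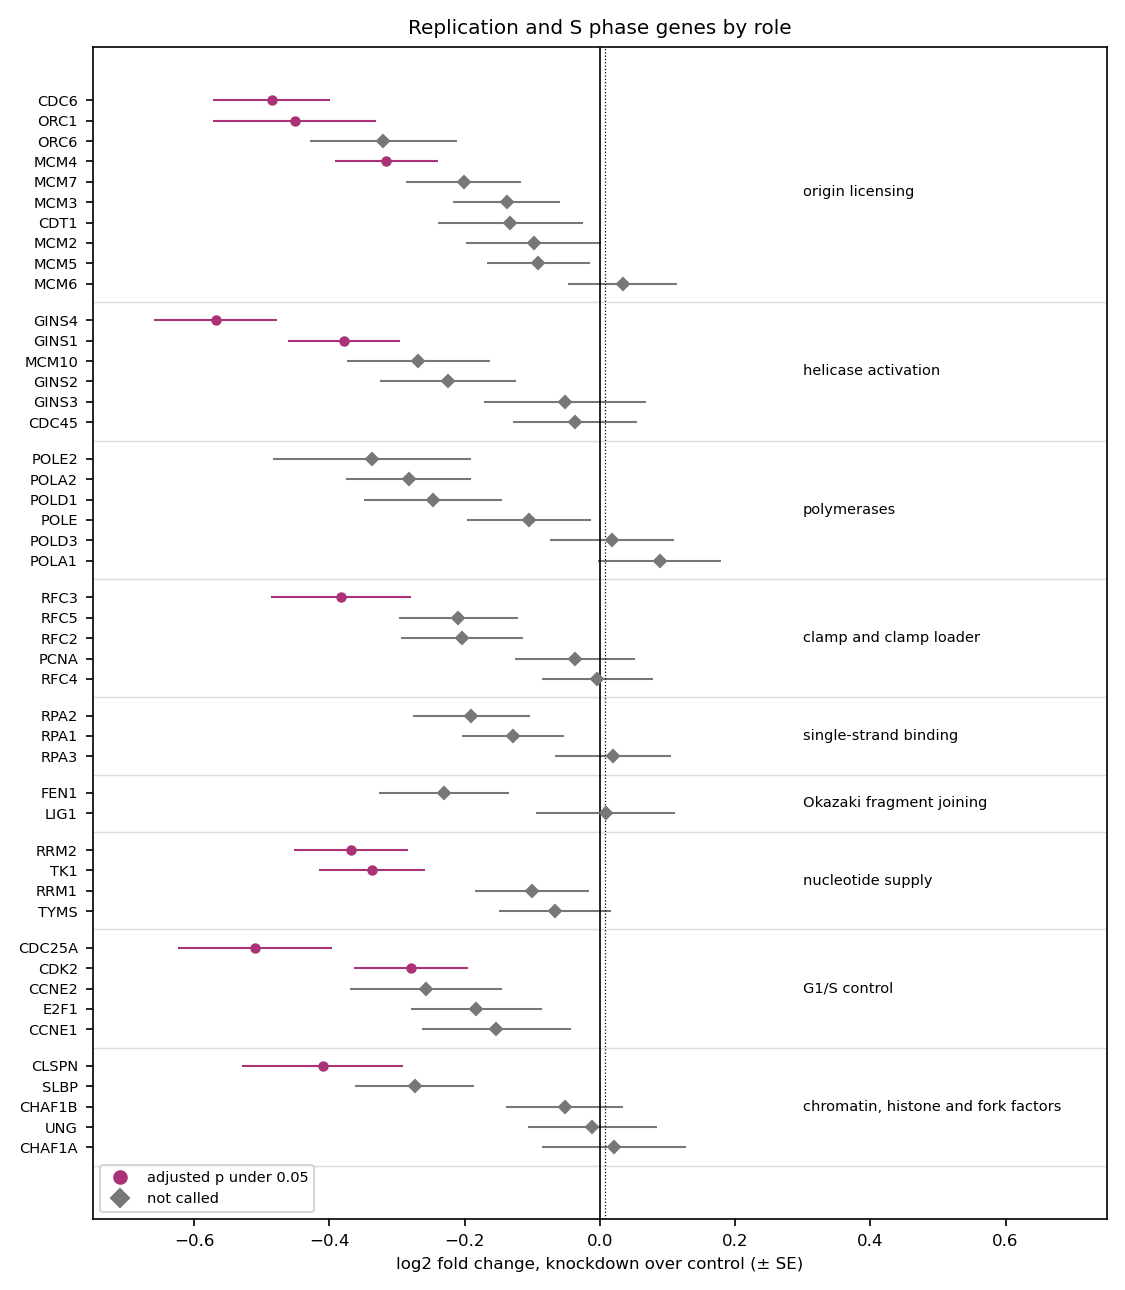
Log2 fold change of the 46 tested members, knockdown over control, with bars for the SE of the edgeR fit. Genes are grouped by role, round magenta points are the 11 with an adjusted p under 0.05, and the dotted line is the median of all 12305 tested genes at 0.01. All 11 called genes lie left of 0, and the polymerases, the single-strand binding proteins and the pair that joins Okazaki fragments hold none of them. The median of the polymerases, -0.18, was nonetheless close to that of origin licensing, -0.17.

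To show what the promoters of these genes share, windows from 250 bases before to 50 after the transcription start were taken from RefSeq (build GRCh38.p14), which held 39 of the 47 members, 38 of them tested. Of the lower members 8 had a window, while GINS4, MCM4 and CDK2 had none and were not searched. Each window was searched on both strands for the E2F octamers TTTCCCGC, TTTCGCGC, TTTGCCGC and TTTGGCGC and for CCAAT, the core of the NF-Y site. An octamer stood in 21 of the 38 tested members (55.3%), against 6.75% of the 9365 tested genes with a window and 3.31% of all 35116 windows. CCAAT stood in 60.5% of the members, 43.6% of the tested genes and 34.6% of all windows. A total of 28 octamer matches were found, with a median position of 37 bases before the start, and 1 of them overlapped a CCAAT. The windows below are those of the 4 lower members with the smallest p that hold an octamer, of the 2 lower members with the smallest p that hold none, and of the 2 members with an octamer and the smallest change. Capitals mark each octamer and each CCAAT in either orientation, and the sequences run 5′ to 3′ on the gene's strand.
CDC6: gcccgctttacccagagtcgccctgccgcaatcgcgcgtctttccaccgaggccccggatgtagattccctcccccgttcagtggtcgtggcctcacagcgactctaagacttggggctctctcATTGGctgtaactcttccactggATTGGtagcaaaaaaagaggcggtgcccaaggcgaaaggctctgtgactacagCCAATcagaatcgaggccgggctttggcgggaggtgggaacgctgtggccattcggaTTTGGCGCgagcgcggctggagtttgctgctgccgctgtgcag
GINS1: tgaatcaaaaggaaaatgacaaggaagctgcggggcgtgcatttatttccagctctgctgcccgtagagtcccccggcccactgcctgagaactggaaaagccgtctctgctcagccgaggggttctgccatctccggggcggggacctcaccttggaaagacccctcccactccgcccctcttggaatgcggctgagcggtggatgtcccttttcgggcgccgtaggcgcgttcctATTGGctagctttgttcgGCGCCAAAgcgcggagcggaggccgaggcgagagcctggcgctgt
CDC25A: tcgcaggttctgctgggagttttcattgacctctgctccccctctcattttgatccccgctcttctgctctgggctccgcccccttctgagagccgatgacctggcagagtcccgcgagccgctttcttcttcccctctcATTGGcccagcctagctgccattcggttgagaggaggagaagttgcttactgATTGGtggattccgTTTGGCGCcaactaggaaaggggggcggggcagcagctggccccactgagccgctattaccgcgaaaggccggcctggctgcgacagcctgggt
RFC3: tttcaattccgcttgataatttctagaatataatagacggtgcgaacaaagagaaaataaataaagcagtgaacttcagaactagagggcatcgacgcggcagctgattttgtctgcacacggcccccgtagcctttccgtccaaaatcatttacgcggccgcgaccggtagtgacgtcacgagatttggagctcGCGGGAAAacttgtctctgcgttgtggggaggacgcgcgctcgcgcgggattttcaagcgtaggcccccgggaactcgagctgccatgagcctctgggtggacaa
RRM2: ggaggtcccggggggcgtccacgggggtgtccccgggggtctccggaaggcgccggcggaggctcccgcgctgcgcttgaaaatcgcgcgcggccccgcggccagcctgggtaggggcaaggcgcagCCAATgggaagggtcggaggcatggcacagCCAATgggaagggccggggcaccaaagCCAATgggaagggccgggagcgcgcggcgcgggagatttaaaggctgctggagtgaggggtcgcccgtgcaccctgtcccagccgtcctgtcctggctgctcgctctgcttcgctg
TK1: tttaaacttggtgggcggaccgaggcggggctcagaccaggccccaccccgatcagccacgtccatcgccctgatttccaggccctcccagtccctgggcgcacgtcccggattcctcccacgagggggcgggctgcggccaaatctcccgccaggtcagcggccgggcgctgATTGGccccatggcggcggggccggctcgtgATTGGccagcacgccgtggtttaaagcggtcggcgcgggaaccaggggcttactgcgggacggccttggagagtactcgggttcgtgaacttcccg
LIG1: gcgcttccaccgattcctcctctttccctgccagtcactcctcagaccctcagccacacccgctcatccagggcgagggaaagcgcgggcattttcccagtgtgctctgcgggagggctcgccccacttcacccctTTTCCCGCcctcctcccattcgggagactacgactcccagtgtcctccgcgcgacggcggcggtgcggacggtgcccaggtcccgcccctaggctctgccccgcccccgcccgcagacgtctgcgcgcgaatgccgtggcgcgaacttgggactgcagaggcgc
UNG: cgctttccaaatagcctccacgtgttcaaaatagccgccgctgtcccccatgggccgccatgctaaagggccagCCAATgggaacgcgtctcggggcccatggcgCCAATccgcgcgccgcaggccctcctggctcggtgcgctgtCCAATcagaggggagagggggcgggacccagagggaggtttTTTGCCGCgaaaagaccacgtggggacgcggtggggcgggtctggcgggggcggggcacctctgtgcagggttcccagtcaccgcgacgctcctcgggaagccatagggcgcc

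These windows lie at chr17:40287629-40287928 on the plus strand, chr20:25407423-25407722 on the plus strand, chr3:48188368-48188667 on the minus strand and chr13:33817899-33818198 on the plus strand, for the members with an octamer that fell. Those of RRM2 and TK1 lie at chr2:10122489-10122788 on the plus strand and chr17:78187003-78187302 on the minus strand. Those of LIG1 and UNG, which joins Okazaki fragments and removes uracil from DNA, respectively, lie at chr19:48170295-48170594 on the minus strand and chr12:109097922-109098221 on the plus strand. Where a gene had more than 1 window, the one with most octamers and then most CCAAT was printed. In CDC6 and GINS1 the same octamer, TTTGGCGC, began 7 and 5 bases after the first transcribed base, in opposite orientations. Members with and without an octamer were both among those that fell: 5 of the 21 with an octamer and 3 of the 17 without were lower, and the median log2 fold changes were -0.14 and -0.21. For CCAAT, 7 of 23 members with it and 1 of 15 without were lower, with medians of -0.20 and -0.15. A match is a run of letters and no measurement of binding, and these counts were not tested.

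**Figure D2:**
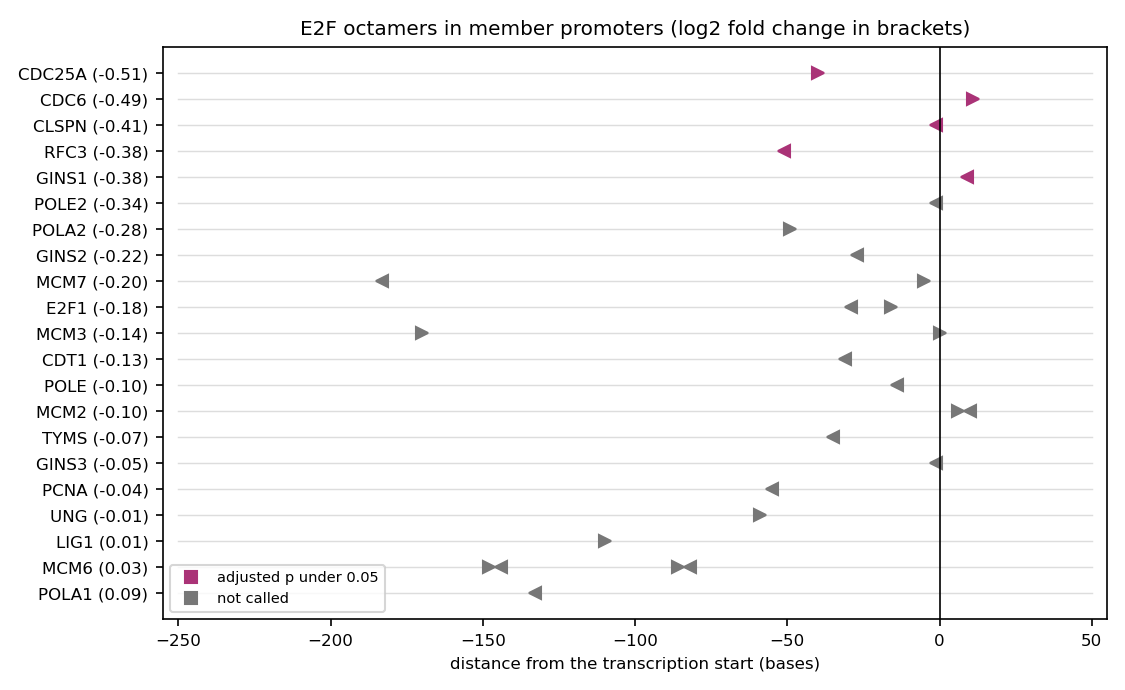
Position of each E2F octamer in the promoter windows of the 21 tested members that hold one, in bases from the transcription start; arrowheads point along the strand on which the octamer reads. Genes are ordered by log2 fold change (in brackets), magenta marks an adjusted p under 0.05, and both called and uncalled genes have their octamers mostly within 60 bases of the start (19 of 28 matches).

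Of the 10 licensing genes 3 fell, CDC6, ORC1 and MCM4, and the median log2 fold change was -0.17. CDC6 (ENSG00000094804, chromosome 17, 38443885 to 38459171 on the plus strand, hg19) is the ATPase that works with ORC to load the helicase. The controls had 116, 97.1 and 103 CPM of it, and the knockdown libraries 75.3, 68.7 and 81.9 CPM. Every knockdown library was below every control, and the log2 fold change was -0.49 with an SE of 0.0869 (adjusted p = 0.000589). ORC1 (ENSG00000085840, chromosome 1, 52838501 to 52870131, minus strand), the ORC subunit whose protein is removed after S phase begins, had 23.8, 19.9 and 21.9 CPM in controls and 17.0, 14.1 and 16.9 CPM in the knockdown. Its groups did not overlap either, and its log2 fold change was -0.45 with an SE of 0.12 (adjusted p = 0.0195). Leaving out control replicate 1 ended the call (adjusted p = 0.0835), as did leaving out knockdown replicate 2 (adjusted p = 0.14). The smallest ORC subunit, ORC6, was at 80.1% of the control level with no overlap between the groups, but did not pass (adjusted p = 0.0703), except without control replicate 2 (adjusted p = 0.028).

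Within the helicase ring the subunits differed in their values. MCM4 (ENSG00000104738, chromosome 8, 48872745 to 48890720, plus strand) had 222, 216 and 229 CPM in controls and 187, 169 and 179 CPM in the knockdown. No knockdown library reached a control, and the log2 fold change was -0.32 with an SE of 0.0763 (adjusted p = 0.0095, and 0.0986 without knockdown replicate 2). None of the other 5 ring subunits passed. MCM7 had a log2 fold change of -0.20 (adjusted p = 0.157, and 0.0322 without control replicate 2), MCM3 one of -0.14, MCM2 -0.10 and MCM5 -0.09, while MCM6 was at 0.03. Set against the mean of the other 5 subunits in the same library, the log2 level of MCM4 was 0.26, 0.26 and 0.13 below its control mean in the 3 knockdown libraries, and the control libraries ran from -0.08 to 0.07. The same measure for MCM6 was 0.17 to 0.23 above its control mean in the knockdown, with controls from -0.14 to 0.09, so neither overlapped between the groups. It overlapped for MCM2, MCM3, MCM5 and MCM7, and MCM4 is part of the mean that MCM6 is set against. Such measures were also taken within ORC, RPA and the RFC loader, where all but RFC3 and RPA3 overlapped. All such measures reuse the values that gave the calls, and no share over all genes was computed for any of them. CDT1, the loading factor that hands the ring to ORC and CDC6, was at 33.4 ± 2.75 CPM in controls and 30.4 ± 3.80 in the knockdown (adjusted p = 0.511).

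Of 6 genes of helicase activation 2 fell, both of them GINS subunits, and the median log2 fold change of the 4 GINS genes was -0.30. GINS4 (ENSG00000147536, chromosome 8, 41386725 to 41402565, plus strand), also known as SLD5, had 48.2, 46.9 and 51.3 CPM in controls and 32.0, 32.3 and 34.5 CPM in the knockdown. These groups lay well apart, and the log2 fold change of -0.57 (SE 0.0911, adjusted p = 0.000156) was the lowest of the 46 members. GINS1 (ENSG00000101003, chromosome 20, 25388363 to 25433264, plus strand), the subunit also called PSF1, had 105, 87.7 and 101 CPM in controls and 75.0, 75.3 and 76.1 CPM in the knockdown. Its knockdown libraries were nearly equal and all below the controls, with a log2 fold change of -0.38 (SE 0.0827, adjusted p = 0.00419). Both calls held without any single library. GINS2 and GINS3 did not pass, with log2 fold changes of -0.22 and -0.05 (adjusted p = 0.183 and 0.853). Against the mean of the other 3 GINS subunits in the same library, GINS4 was 0.29 to 0.42 log2 units below its control mean in the knockdown and GINS3 0.24 to 0.44 above, and neither overlapped the controls. GINS1 and GINS2 overlapped in this measure, and GINS4 is part of the mean that GINS3 is set against. The measure reuses the values that gave the GINS4 call, and its share over all genes was not computed. CDC45, the third part of the running helicase, was at 51.4 ± 3.65 CPM in controls and 50.1 ± 4.51 in the knockdown (adjusted p = 0.866). MCM10, which acts when the loaded helicase is switched on, was at 82.9% of control with no overlap between the groups but an adjusted p of 0.122 (0.0447 without control replicate 2).

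**Figure D3:**
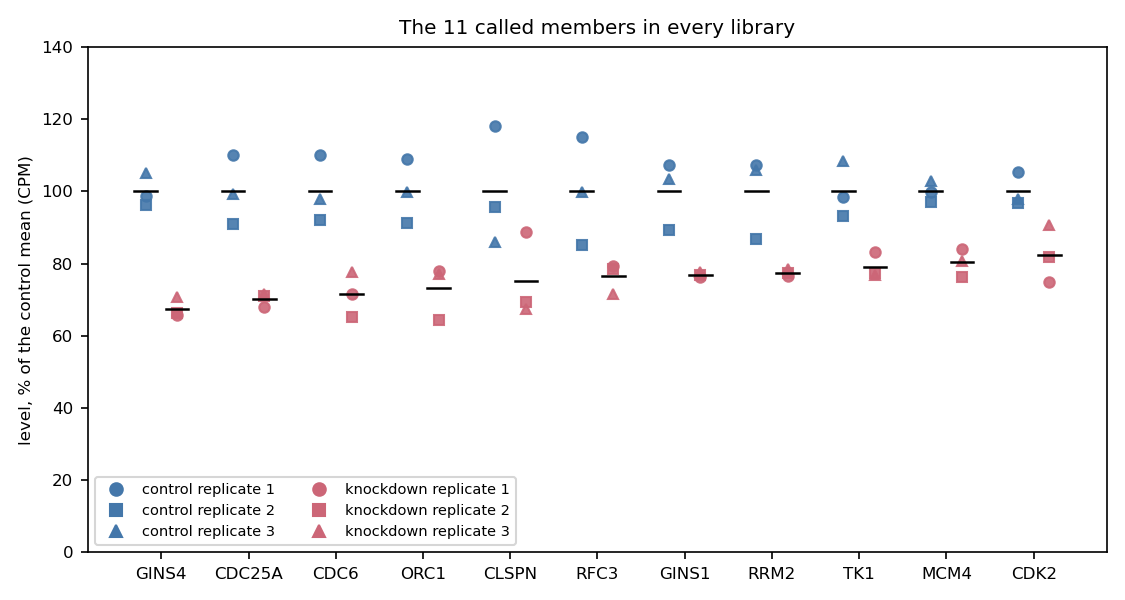
Level of the 11 called members in every library, as percent of the control mean of that gene in CPM. Blue symbols are the 3 control and red symbols the 3 knockdown libraries, black lines are group means, and the groups overlap for CLSPN alone, where knockdown replicate 1 lies above control replicate 3.

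The 6 polymerase genes tested had a median log2 fold change of -0.18, close to the -0.17 of the licensing genes. Of these 6 genes 0 passed, with 3 at an unadjusted p under 0.05, and DESeq2 and limma-voom called 0 as well. POLA2, the regulatory subunit of polymerase alpha, which starts each strand with primase, came nearest. It had 68.4, 54.0 and 60.8 CPM in controls and 52.5, 49.1 and 48.9 CPM in the knockdown, without overlap, and its log2 fold change was -0.28 (SE 0.0925, adjusted p = 0.0589). It passed without control replicate 2 (adjusted p = 0.0185), with no filter on low counts (adjusted p = 0.0308) and with the replicate number as a block (adjusted p = 0.0399). POLA1, the catalytic subunit of the same enzyme, was at 106% of control, the highest of the members (adjusted p = 0.622). The log2 ratio of POLA2 to POLA1 was 0.35 to 0.40 below its control mean in the knockdown, with controls from -0.23 to 0.18. This ratio restates the values of the 2 genes and was not tested. The catalytic subunits of polymerases delta and epsilon, POLD1 and POLE, had log2 fold changes of -0.25 and -0.10, and the accessory subunits POLE2 and POLD3 -0.34 and 0.02. POLD1 and POLE2 passed without control replicate 2 (adjusted p = 0.0365 and 0.0474).

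One subunit of the clamp loader fell and the clamp did not pass. RFC3 (ENSG00000133119, chromosome 13, 34392186 to 34540695, plus strand) had 53.0, 39.1 and 45.9 CPM in controls and 36.5, 36.1 and 33.0 CPM in the knockdown. The groups did not overlap, but control replicate 2 was close to the knockdown libraries, and the log2 fold change was -0.38 (SE 0.104, adjusted p = 0.022). The call was lost without control replicate 1 (adjusted p = 0.137), knockdown replicate 2 (0.0557) or knockdown replicate 3 (0.105). RFC5 and RFC2 had log2 fold changes of -0.21 and -0.20 (adjusted p = 0.153 and 0.18). RFC4 was at 99.8% of control (adjusted p = 0.987). PCNA, the sliding clamp, had 367, 312 and 354 CPM in controls and 377, 309.9 and 320.4 CPM in the knockdown, so the highest and the lowest value both belonged to the knockdown. Its log2 fold change was -0.04 with an SE of 0.0881 (adjusted p = 0.859).

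The RPA genes and the pair of genes that finish the lagging strand gave 0 calls in edgeR, DESeq2 and limma-voom, and RPA2 and FEN1 had an unadjusted p under 0.05. RPA1, the large DNA-binding subunit of RPA, had 248, 233 and 247 CPM in controls and 228, 214 and 224 CPM in the knockdown. The groups did not overlap, yet the difference was small, with a log2 fold change of -0.13 (SE 0.0759, adjusted p = 0.334). RPA2, the subunit phosphorylated under replication stress, had 74.6, 65.0 and 77.8 CPM in controls and 66.4, 61.5 and 62.6 CPM in the knockdown, with overlap (adjusted p = 0.19). RPA3 was at 101% of control, and its span overlaps RPA3-AS1 on the opposite strand, whose reads cannot be told apart from it unless strand was used in counting. FEN1, the nuclease that trims the flap of each fragment, had 92.1, 77.5 and 97.2 CPM in controls and 84.9, 66.2 and 76.2 CPM in the knockdown. The groups overlapped, and the log2 fold change was -0.23 (SE 0.0962, adjusted p = 0.152, and 0.0446 without control replicate 2). FEN1 shares 4265 bases of its span with FADS2 on the same strand, and how reads there were counted is not given in the sources used here. The ligase LIG1 was at 0.01 (adjusted p = 0.975).

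Of the 4 genes that supply deoxynucleotides 2 fell, the small subunit of ribonucleotide reductase and cytosolic thymidine kinase. RRM2 (ENSG00000171848, chromosome 2, 10262455 to 10271545, plus strand) is the reductase subunit whose supply is tied to S phase. It had 287, 233 and 283 CPM in controls and 205, 208 and 210.0 CPM in the knockdown. All knockdown libraries were below all controls and close to each other, with a log2 fold change of -0.37 (SE 0.0841, adjusted p = 0.00608), and the call held without any single library. TK1 (ENSG00000167900, chromosome 17, 76170160 to 76183314, minus strand), which recycles thymidine in the cytosol, had 174, 164 and 191 CPM in controls and 147, 136 and 135 CPM in the knockdown. Again the groups were apart, and the log2 fold change was -0.34 (SE 0.0791, adjusted p = 0.00779). Without knockdown replicate 2 or 3 the TK1 call was just lost (adjusted p = 0.0571 and 0.0524). RRM1, the large reductase subunit, had 346, 278 and 299 CPM in controls and 295, 286 and 279 CPM in the knockdown. These groups overlapped, and RRM1 did not pass (log2 fold change -0.10, adjusted p = 0.53). The log2 ratio of RRM2 to RRM1 was 0.21 to 0.33 below its control mean in the knockdown, with controls from -0.07 to 0.12. This ratio reuses the values that gave the RRM2 call and was not tested. TYMS, which makes thymidylate from deoxyuridylate, was at 95.5% of control (adjusted p = 0.696).

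Of 5 regulators of the entry into S phase 2 fell, the phosphatase CDC25A and the kinase CDK2 that it activates. CDC25A (ENSG00000164045, chromosome 3, 48198636 to 48229892, minus strand) had 26.3, 21.7 and 23.7 CPM in controls and 16.2, 17.0 and 17.1 CPM in the knockdown. The groups stood clearly apart, the log2 fold change was -0.51 with an SE of 0.114 (adjusted p = 0.00503), and the call held without any single library. CDK2 (ENSG00000123374, chromosome 12, 56360553 to 56366568, plus strand) had 93.2, 85.7 and 86.8 CPM in controls and 66.4, 72.3 and 80.3 CPM in the knockdown. The groups did not overlap, but knockdown replicate 3 came near the controls, and the log2 fold change was -0.28 (SE 0.0846, adjusted p = 0.0406). It was called without knockdown replicate 3, while leaving out control replicate 1, 2 or 3 gave adjusted p = 0.123, 0.0503 and 0.0525, and leaving out knockdown replicate 1 or 2 gave 0.17 and 0.143. Scaled by library totals alone, it was not called either (adjusted p = 0.0664). CDK2 overlaps PMEL on the opposite strand, which had 68 reads in all libraries against 7599 for CDK2. The cyclins CCNE1 and CCNE2 were at 89.9% and 83.6% of control, each without overlap between the groups and without a call (adjusted p = 0.45 and 0.174), and CCNE2 overlaps 1977 bases of INTS8 on the opposite strand. E2F1, a transcription factor of this gene set, had 104, 89.8 and 115 CPM in controls and 103, 81.7 and 87.2 CPM in the knockdown. Its groups overlapped, and it did not pass (log2 fold change -0.18, adjusted p = 0.274).

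Of 5 tested chromatin, histone and fork factors CLSPN alone fell. CLSPN (ENSG00000092853, chromosome 1, 36185819 to 36235568, minus strand) encodes claspin, which links stalled forks to the checkpoint kinase CHK1. It had 63.6, 51.5 and 46.2 CPM in controls and 47.7, 37.3 and 36.2 CPM in the knockdown. It was the one called member with overlap, and the log2 fold change was -0.41 (SE 0.119, adjusted p = 0.0378). The adjusted p was 0.161, 0.0599, 0.144 and 0.155 without control replicate 1, control replicate 2, knockdown replicate 2 and knockdown replicate 3. SLBP, which binds the stem-loop of histone mRNAs, had 97.6, 82.6 and 101 CPM in controls and 84.1, 72.9 and 75.8 CPM in the knockdown. Only knockdown replicate 1 reached into the control range, and SLBP lay just past the threshold (log2 fold change -0.27, adjusted p = 0.0546). It passed in 5 of the settings tried, among them the fit without control replicate 2 (adjusted p = 0.0136). The histone chaperone subunits CHAF1A and CHAF1B had log2 fold changes of 0.02 and -0.05, and the uracil glycosylase UNG -0.01. CHAF1A was the most uneven of these in the knockdown, with 57.8, 45.5 and 40.9 CPM.

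The roles differed in whether the libraries of both groups stayed apart. As a mean of log2 CPM set to 0 at the control mean, all 46 members stood at 0.08, -0.11 and 0.04 in controls, and at -0.12, -0.25 and -0.21 after knockdown. Control replicate 2 and knockdown replicate 1 were thus close together. Licensing, helicase activation, nucleotide supply and G1/S control did not overlap between the groups. The polymerases, the clamp with its loader, the single-strand binding proteins, the Okazaki pair and the chromatin factors did. The margins were narrow for licensing and nucleotide supply. Control replicate 2 and knockdown replicate 1 were at -0.115 and -0.135 for licensing, and at -0.137 and -0.157 for nucleotide supply. For the clamp with its loader, which overlapped, these libraries were at -0.133 and -0.0956. The G1/S genes were the most even across the knockdown libraries, at -0.29, -0.27 and -0.26. Among the Okazaki pair knockdown replicate 1 was at 0.065, barely above the highest control, replicate 1 at 0.061. These means are descriptions without a test. They reuse the values that gave the calls, and no share for gene sets of like size was computed.

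**Figure D4:**
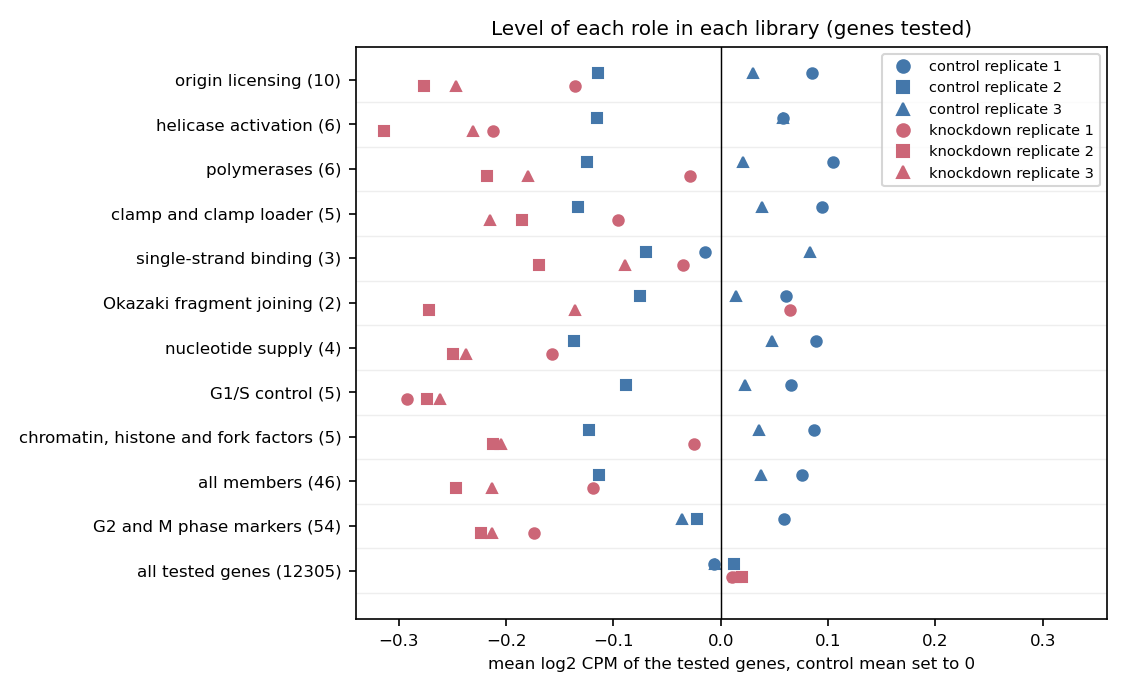
Mean log2 CPM of the tested genes of each role in every library, with the control mean set to 0 and the number of genes in brackets. Control replicate 2 (blue square) is the lowest control in every role, knockdown replicate 1 (red circle) is the highest knockdown library in all roles but G1/S control, and all tested genes lie close to 0.

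One control library stood low for most members. Control replicate 2 was the lowest of the 3 controls in 37 of 46 members, against 33.2% of all tested genes, and was the highest in 0. Knockdown replicate 1 was the highest of its group in 33 members, against 37.9% of all tested genes. Among the 35 members without a call, knockdown replicate 1 exceeded control replicate 2 in 26, and among the 11 called members in 0. The calls were made from these same values, so this split is largely fixed by them. The share over all tested genes was not computed. For 54 markers of G2 and M phase, control replicate 2 was not the lowest control: the mean log2 level was 0.06, -0.02 and -0.04 in controls, against -0.17, -0.22 and -0.21 after knockdown. For 20 S phase markers that are no members, control replicate 2 was again the lowest, with 0.13, -0.10 and -0.03 in controls. After knockdown these markers stood at -0.04, -0.15 and -0.09, so their groups overlapped. How far the share of cells in each phase had a part in the values of the members was not tested.

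Levels were compared between members per kilobase of exon, using the union of exons in GENCODE 29. The members spanned 6.31 to 234 CPM per kb in controls. PCNA was the highest, at 234 ± 19.8 CPM per kb, followed by TYMS at 111 ± 7.91, RFC4 at 107 ± 6.74 and TK1 at 102 ± 7.82, where TYMS and RFC4, and RFC4 and TK1, differed by less than their SDs. The MCM ring subunits lay between 32.4 (MCM6) and 55.8 CPM per kb (MCM7), above the GINS subunits, which ran from 7.45 (GINS3) to 30.2 (GINS1). MCM6 and GINS1 differed by less than their SDs, 2.86 and 2.82. RFC4 was far above the other loader subunits, which ran from 16.0 (RFC3) to 40.2 CPM per kb (RFC2). CDC25A, POLE and ORC1 were the lowest, at 6.31 ± 0.604, 6.38 ± 0.396 and 6.93 ± 0.611. The called members were spread over this range, from CDC25A to TK1.

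**Figure D5:**
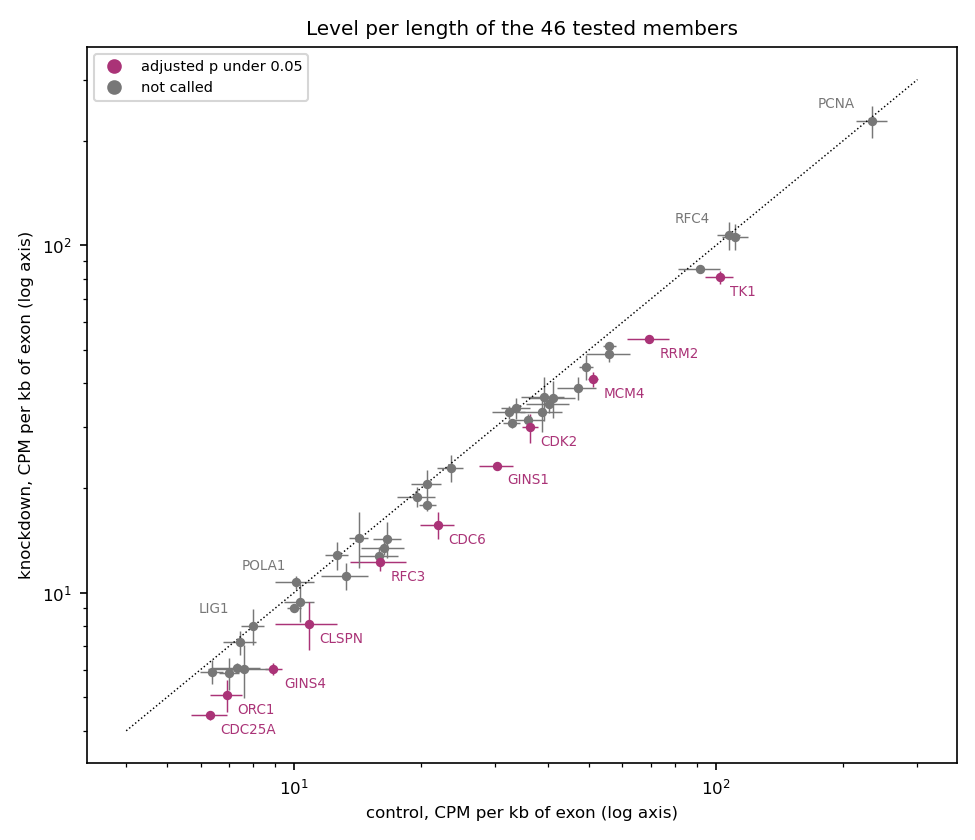
Level per length of the 46 tested members in CPM per kb of exon, controls on the x axis and knockdown on the y axis, both log axes, with bars for the SD over 3 libraries. The dotted line marks equal levels; the 11 called members (magenta) lie below it from CDC25A at 6.31 to TK1 at 102 CPM per kb in controls.

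Other genes of the same pathway, outside the 47, were read from 4 further lists, beside 4.12% lower and 3.96% higher among all tested genes. Of 15 other licensing and firing factors 2 fell and 0 rose, with a median log2 fold change of -0.09. They were TICRR, which helps load CDC45, from 77.3 ± 6.82 to 62.5 ± 5.06 CPM (adjusted p = 0.0309), and its partner MTBP, from 13.1 ± 2.18 to 9.38 ± 1.32 CPM (adjusted p = 0.0475). Of 27 other fork and polymerase genes 3 fell and 1 rose. PRIM2, the primase subunit that works with polymerase alpha, fell from 64.3 ± 2.44 to 45.9 ± 5.39 CPM (log2 fold change -0.49, adjusted p = 0.00109). DTL, which directs the destruction of CDT1 in S phase, fell from 76.6 ± 8.42 to 59.4 ± 1.37 CPM (adjusted p = 0.00922). The third that fell was the histone chaperone ASF1B, named after its value was seen. RNASEH2B, a subunit of the enzyme that removes ribonucleotides from DNA, rose from 19.5 ± 1.41 to 26.4 ± 3.29 CPM (adjusted p = 0.0204).

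Of 12 other nucleotide supply genes 0 fell and 1 rose. This was TK2, the mitochondrial thymidine kinase, which rose from 10.0 ± 1.57 to 16.8 ± 0.55 CPM (log2 fold change 0.75, adjusted p = 0.0006), and so moved opposite to cytosolic TK1. Of 21 tested other G1/S regulators 3 fell and 0 rose: the repressor E2F7, the ubiquitin ligase subunit SKP2 and cyclin D3 (CCND3), with log2 fold changes of -0.29, -0.27 and -0.34. Of 20 tested S phase markers that are no members 1 fell, DTL, and 0 rose, with a median of -0.10. Of 54 G2 and M phase markers 19 fell and 0 rose, with a median of -0.22, and the 3 with the smallest adjusted p were CDC20, KIF2C and UBE2C at -0.60, -0.47 and -0.44.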

How the data were processed

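Bulk RNA was sequenced from 6 libraries, 3 per group, after oligo dT enrichment and a stranded dUTP kit, per the labels' protocols. The deposited table gives raw read counts per gene and, per the file headers, a second block of counts normalised by DESeq2. The deposited normalised signal was the raw count over 1 factor per library, from 0.903 to 1.15. Named in the submitters' processing notes are build hg19, the read trimmer fastp (0.20.0), the aligner STAR (2.7.9a), the counter featureCounts (2.0) and DESeq2. For settings, annotation release and use of strand, nothing was given in the sources used here.

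Raw counts were filtered with filterByExpr (12305 of 20325 genes kept), scaled by TMM factors (0.987 to 1.01) and fitted with edgeR 4.0.16 in R 4.3.3 (glmQLFit robust, glmQLFTest, group alone). P-values were adjusted over all 12305 genes by Benjamini-Hochberg, with a threshold of 0.05. Levels are CPM of the scaled library, ± SD over 3 libraries. SE was taken as the size of the fitted log2 fold change divided by the root of its F statistic. Alternatives were DESeq2 1.42.0, limma 3.58.1, other scalings, filters and thresholds, a replicate block and leaving out each library. The code was tested on simulated data. No pair of replicates agreed within sampling noise (chi-square per degree of freedom of 2.99 for knockdown replicates 2 and 3, and of 9.80 to 10.5 for the other 5 pairs).

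The members and lists were chosen with earlier results of these data known. Named are all members, with values in every library for called members and, per role, for the member with the smallest p and the one with the highest CPM, and up to 3 called genes of each other list by adjusted p. Promoter matches used primary chromosomes only.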

Additional observations from a re-analysis of the deposited data

How the results depend on the processing

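All 11 called members kept a negative log2 fold change in every fit tried. GINS4, CDC6, GINS1, RRM2 and CDC25A were called in every fit, and all 11 were called with DESeq2, limma-voom and limma-trend on the deposited normalised counts plus a pseudocount of 1. The count of lower members, 11, ranged from 5 to 17 over the fits that left out 1 library and was 7 at an adjusted p under 0.01. The count of higher members was 0 in every fit. Over all genes, 507 lower became 285 to 423 and 487 higher became 312 to 433 without 1 library. At an adjusted p under 0.01 they were 207 and 251, and at 0.1 they were 771 and 743. Scaled by library totals alone, 417 were lower and 610 higher. The median log2 fold change of the members, -0.20, ran from -0.26 to -0.13 without 1 library. Some role medians moved by over 1.5 times. That of the chromatin, histone and fork factors, -0.05, became -0.01 with control replicate 1 or 3 left out and -0.14 with control replicate 2 left out. Leaving out knockdown replicate 1, 2 or 3 gave -0.13, -0.02 and -0.09, and scaling by library totals gave -0.03. That of the Okazaki pair, -0.11, became -0.21 without knockdown replicate 1 and -0.04 without knockdown replicate 2. That of the clamp and its loader, -0.20, became -0.11 without control replicate 3. All medians stayed negative in these fits. With the replicate block 13 members were lower, POLA2 and SLBP being added, with 647 lower genes in all. Same-numbered libraries did not deviate together (correlations of 0.06, 0.11 and -0.06), so the number is not taken as a pairing. With 3 libraries a group, differences of the size of the smaller ones here may not be detectable.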

Other observations

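Replication-dependent histone genes, whose mRNAs mostly end without a poly(A) tail, were mostly too low to test after oligo dT enrichment. Of 70 listed genes 11 were tested, 13 had no read, and 1 fell. The best detected were HIST1H2AC, at 14.5 CPM in controls and 15.1 in the knockdown, and HIST1H2BH, HIST1H1C and HIST1H2BD, at 10.6, 10.4 and 7.10 CPM in controls. All but HIST1H2BH were named after their values were seen. The one that fell was HIST1H2BH, at 8.38, 12.6 and 10.8 CPM in controls and 2.89, 5.58 and 5.32 CPM in the knockdown, with an edgeR log2 fold change of -1.21 (adjusted p = 0.000594). Its close copies can share reads with it.

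Outside the members, the promoter windows of S phase markers held the E2F octamers about as often as those of the tested members (21 of 38). The windows of G2 and M phase markers seldom held them and mostly held other letters, named CHR. The E2F octamers stood in 9 of 15 windows of S phase markers that are no members and in 3 of 45 of G2 and M phase markers. The CHR letters TTTGAA or TTCGAA, searched on both strands, stood in 35 of the same 45 (77.8%), in 3 of 38 tested members and in 15.4% of tested genes. None of the 8 lower members with a window held them.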
